A study of Rattus norvegicus with 14 samples.

Results

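The 10 genes described here, Per1, Per2, Per3, Cry1, Cry2, Nr1d1, Nr1d2, Ciart, Dbp and Tef, encode negative-arm and output factors of the circadian clock. They were taken by gene symbol from tables of 30562 genes, and all 10 were among the 17035 genes with enough counts to be tested over 14 libraries. The libraries were made from RNA of dorsal root ganglia L2 to L5, where the sensory neurons of the hindlimb have their cell bodies, from 7 male wild-type rats. In each rat the extensor digitorum longus, a leg muscle, had been grafted in one hindlimb to the saphenous nerve, which is a sensory nerve of the leg, and the ganglia of that side are called surgical. The ganglia of the unoperated hindlimb of the same rat are called control, so the control samples come from animals that had the operation and not from naive animals. Rats A, B and E were labelled 6 weeks and rats D, C, G and H 8 weeks, so that each side had 3 libraries at the earlier time and 4 at the later one. The labels gave no age, no hour of the day at which a rat was sampled and no order of dissection of its sides.

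The clock of mammalian cells is a feedback loop of transcription. The proteins CLOCK and BMAL1 bind E-box sequences in DNA and activate the Per, Cry, Nr1d1, Nr1d2, Ciart and Dbp genes, and the PER and CRY proteins then return to the nucleus and repress CLOCK and BMAL1. NR1D1 and NR1D2, also called REV-ERB alpha and beta, repress the gene of BMAL1, while DBP and TEF activate genes through D-box sequences. In peripheral tissues the transcripts of such genes rise and fall over the day, so a level taken at a single time depends on the hour of sampling, and the ganglia of a rat, taken in the same session, would share that hour if the rat was sampled once. The data were therefore asked 2 questions: whether the sides of a rat resembled each other more than rats of the same time did, and whether the times differed.

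Promoter sequence shows which of these genes carry the binding letters of the loop near a transcript start. The RefSeq promoter table of rat assembly GRCr8 held windows for 9 of the 10 genes, 10 windows in all, of which Nr1d1 had 2. Each window was read over the 250 bases before the start, on both strands, for the E-box CACGTG, its variant CACGTT, the D-box TTATGTAA and the ROR half-site AGGTCA, none of which overlapped another here. The E-box was present in a window of 3 genes (Ciart, Tef and Nr1d1) against 5.59% of 33469 windows of the table, and CACGTT in a window of 3 genes (Cry2, Nr1d1 and Per2) against 4.07%. The D-box was present in the window of Per2 against 0.828% of windows, and AGGTCA in that of Nr1d2 against 14.1%. The windows of Ciart, Tef, Nr1d1 and Per2 are shown because they hold an E-box or a D-box, with E-box, CACGTT (either strand) and D-box letters in capitals, read 5′ to 3′ toward the start. They lie at chr2:186112247-186112496 (minus strand) for Ciart, chr7:115206577-115206826 (plus strand) for Tef, chr10:84229455-84229704 (minus strand) for Nr1d1 and chr9:99496994-99497243 (minus strand) for Per2.
Ciart: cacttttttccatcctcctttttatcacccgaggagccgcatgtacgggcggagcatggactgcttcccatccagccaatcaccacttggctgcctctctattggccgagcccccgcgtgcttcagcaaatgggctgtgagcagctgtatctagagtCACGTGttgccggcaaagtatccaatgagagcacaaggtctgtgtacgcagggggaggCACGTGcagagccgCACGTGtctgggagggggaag
Tef: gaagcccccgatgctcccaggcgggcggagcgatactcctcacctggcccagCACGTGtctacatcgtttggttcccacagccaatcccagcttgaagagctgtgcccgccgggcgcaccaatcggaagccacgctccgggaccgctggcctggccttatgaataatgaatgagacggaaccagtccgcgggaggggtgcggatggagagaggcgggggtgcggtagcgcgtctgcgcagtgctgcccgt
Nr1d1: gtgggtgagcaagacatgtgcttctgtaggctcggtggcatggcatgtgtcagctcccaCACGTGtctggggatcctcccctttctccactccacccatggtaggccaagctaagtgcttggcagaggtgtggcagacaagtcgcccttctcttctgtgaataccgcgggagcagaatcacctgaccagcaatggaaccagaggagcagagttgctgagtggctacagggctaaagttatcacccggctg
Per2: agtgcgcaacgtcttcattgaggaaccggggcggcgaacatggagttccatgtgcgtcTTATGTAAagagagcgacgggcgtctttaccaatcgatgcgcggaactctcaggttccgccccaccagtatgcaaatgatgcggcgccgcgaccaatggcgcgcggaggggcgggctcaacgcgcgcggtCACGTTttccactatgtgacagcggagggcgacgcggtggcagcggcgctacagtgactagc
The 3 E-boxes of Ciart began 93, 35 and 21 bases before the start, that of Tef 198 bases and that of Nr1d1 191 bases before it. These windows of Ciart, Tef and Nr1d1 lay inside the spans of their genes in GRCr8. Their starts are thus internal transcript starts and not the outermost ones. The window of Per2 lay partly inside the span of its gene, which reached 99497069, so its start is not the outermost one either. The other window of Nr1d1, at chr10:84231813-84232062, directly before the outermost start of the gene, held CACGTT and no E-box. In Per2 the D-box began 192 bases and the CACGTT 62 bases before the start. A match of letters is a description of the sequence, and binding was not measured in these samples.

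Totals ran from 18489118 to 28237574 estimated counts per library. The mean level of 16 sensory neuron markers in log2 CPM, the log2 of counts scaled to library size, ran from 6.92 to 9.01 in the 6-week controls, 6.15 to 9.02 in the 6-week surgical libraries, 8.77 to 9.50 in the 8-week controls and 8.37 to 9.31 in the 8-week surgical libraries. All 16 markers were detected in every library. RNA of neighbouring tissue was present in a few libraries: 10 skeletal muscle markers averaged 10.05 in rat C surgical, 8.52 in rat H control and 5.78 in rat E surgical, and 8 spinal cord markers averaged 6.95 in the surgical library of rat B. In bulk RNA, fewer cells of a type and less RNA per cell cannot be told apart.

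All 10 clock genes were expressed in every library, and their mean levels, compared per transcript length as TPM (each library's transcripts scaled to a fixed total), spanned 3.94 to 67.7 TPM. Dbp, the D-box activator, was the most abundant at 67.7 TPM (SD 16.2, n = 14 libraries), and Tef, its relative in the same family, followed at 33.2 TPM (SD 6.74). The Cry2 repressor stood at 22.8 TPM (SD 8.48), Nr1d1 at 19.9 TPM (SD 5.47), Nr1d2 at 16.1 TPM (SD 2.16) and Per1 at 15.0 TPM (SD 2.23). Ciart, whose product represses CLOCK and BMAL1, stood at 6.47 TPM (SD 1.68), and the lowest were Cry1 at 4.45 TPM (SD 0.83), Per3 at 3.97 TPM (SD 0.90) and Per2 at 3.94 TPM (SD 0.82). Dbp exceeded Tef in 14 of 14 libraries, Tef exceeded Cry2 in 14 and Per1 exceeded Ciart in 14. The order of the other neighbours was mixed: Cry2 was above Nr1d1 in 10 libraries, Nr1d1 above Nr1d2 in 11, Nr1d2 above Per1 in 10, Ciart above Cry1 in 12, Cry1 above Per3 in 9 and Per3 above Per2 in 8, so the order within the lowest group is within its spread.

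The genes differed in how much they varied. On the log2 CPM scale, which compares a gene with itself across libraries, the distance from the lowest to the highest library was 2.03 for Ciart, 1.92 for Dbp, 1.79 for Per2 and 1.55 for Nr1d1, and it was 0.41 for Tef. The median distance over all 17035 genes was 1.64. Ciart, Dbp and Per2 thus ranged more than the median gene, and the remaining 7 genes less.

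**Figure D1:**
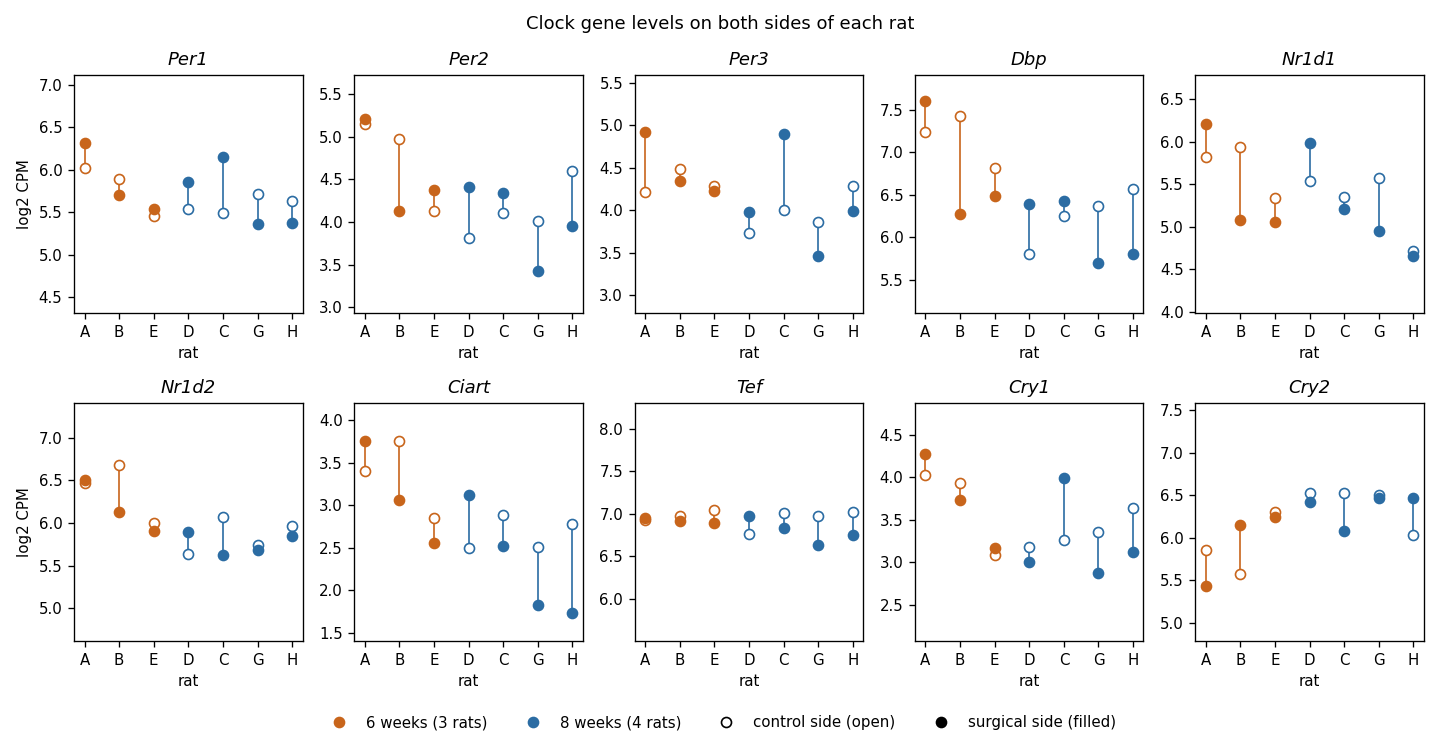
Level of each clock gene (log2 CPM) in the control library (open circle) and the surgical library (filled circle) of each rat, 6-week rats in orange and 8-week rats in blue, with a line joining the sides. The panels have the same height in log2 units; Tef is nearly flat, and the surgical library of rat B lies below its control for Dbp, at 6.28 against 7.43.

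The first comparison asked whether the clock genes differed between the surgical and the control ganglia of the same rats. None of the 10 genes passed over both times in edgeR with the rat as a block (0 of 10 at an adjusted p under 0.05, against 0% of 17035 genes). The same count was 0 of 10 at an unadjusted p under 0.05, against 2.42% of all genes. It was also 0 of 10 with DESeq2, which called 6 of the 17035 genes fitted. The median log2 difference of the 10 was -0.12, against 0.00 over all genes, with 8 negative and 2 positive. A difference that misses the threshold does not show that the sides are alike, and the SE of 0.10 to 0.22 is the precision behind each value.

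Among the PER repressors, which carry the negative limb of the loop, the surgical minus control log2 difference was 0.08 (SE 0.14) for Per1, -0.13 (SE 0.20) for Per2 and 0.13 (SE 0.18) for Per3. For the CRY repressors, their binding partners, it was -0.05 (SE 0.17) for Cry1 and -0.01 (SE 0.15) for Cry2. The nuclear receptors Nr1d1 and Nr1d2 stood at -0.16 (SE 0.17) and -0.14 (SE 0.12). Ciart had the most negative value, -0.31 (SE 0.22), and was lower on the surgical side in 5 of 7 rats. The D-box activators stood at -0.25 (SE 0.22) for Dbp and -0.11 (SE 0.10) for Tef. The adjusted p of every one of the 10 was 1. Without rats B, C and H, whose libraries held muscle or spinal cord RNA, the difference was -0.01 for Dbp, -0.01 for Nr1d1, 0.0097 for Ciart and -0.15 for Cry2. In that setting 0 of 10 were called, against 0 of 16969 genes.

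Separated by time, the log2 differences between the sides ran from -0.37 for Dbp to 0.17 for Per3 at 6 weeks (3 rats) and from -0.38 for Ciart to 0.11 for Per3 at 8 weeks (4 rats). In edgeR 0 of 10 genes passed at either time, against 0% of 17035 genes in each, and 0 of 10 had an unadjusted p under 0.05, against 3.21% of genes at 6 weeks and 1.06% at 8 weeks. The side difference at 8 weeks minus that at 6 weeks was largest for Dbp, 0.20 (SE 0.48), and 0 of 10 genes passed that test, again against 0% of genes and, without adjustment, 0 of 10 against 1.48%. DESeq2 likewise called 0 of the 10 in each of these 3 comparisons. Of the 17035 genes fitted it called 38 at 6 weeks, 4 at 8 weeks and 5 for the difference between the times.

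The small average differences hid large ones within single rats, which pointed in different directions. In rat A, 9 of the 10 genes were higher on the surgical side, by a median of 0.28 log2 CPM, and in rat D 8 were, by a median of 0.29. In rat G all 10 were lower on the surgical side, with a median of -0.44, and in rats B and H 9 of 10 were, with medians of -0.38 and -0.29. Rat E had 3 genes higher and a median of -0.08, and rat C 5 genes higher and a median of 0.02. In log2 CPM, most of the 10 genes thus differed in the same direction in rats A, B, D, G and H, upward in some and downward in others. The share of all genes that differed in that direction was not computed for each rat. In TPM the direction was the opposite for Per1, Per3, Tef and Cry1 in rat B. It was also the opposite for Nr1d1 and Nr1d2 in rat H and for Nr1d2 and Tef in rat A. The genes of rat B thus did not mostly differ in one direction in TPM. Neuronal markers also differed between the sides, by -1.86 log2 CPM in rat A to 1.30 in rat B, and their part in these shifts was not tested.

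**Figure D2:**
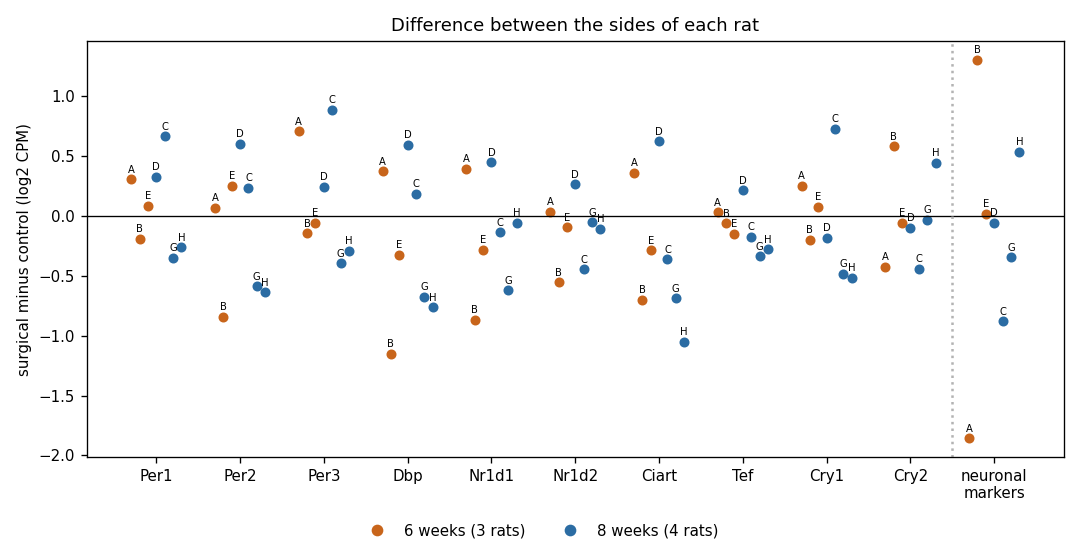
Surgical minus control difference (log2 CPM) of each clock gene in each of 7 rats, lettered, with the mean of 16 neuronal markers at the right on the same axis. Points of a gene scatter on both sides of 0; rats G and H lie below it for nearly every gene, and for Cry2 the order of rats A and B is the opposite of that for Dbp.

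The second comparison measured how much the sides of a rat, which would share an hour of sampling, resembled each other. The intraclass correlation of log2 CPM, after the means of the 4 groups were removed, is 1 where the sides of a rat coincide and near or below 0 where they are no more alike than libraries of different rats. It was 0.46 for Nr1d1, 0.45 for Cry1, 0.26 for Nr1d2, 0.17 for Per1, 0.17 for Per2, 0.16 for Ciart, 0.04 for Per3, 0.03 for Cry2, -0.25 for Dbp and -0.74 for Tef. The median of the 10 was 0.17, against 0.06 over all 17035 genes, and 6 of the 10 lay above that of all genes. The leave-one-rat-out standard error of the median of the 10 was 0.42, and the median was -0.23 without rat E, where that of all genes was -0.28. Without rats B, C and H it was 0.43, against 0.54 for all genes, so the resemblance of the sides in the clock genes was close to that of the transcriptome and imprecise.

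A joint edgeR test of differences among rats of the same time, with the side in the model, called 0 of the 10 genes, against 0.0411% of 17035 genes. At an unadjusted p under 0.05 it held 1 of 10, Nr1d1 (edgeR adjusted p = 0.749), against 4.41% of genes. DESeq2 called 0 of the 10 and 367 of the 17035 genes fitted. Nr1d1, the gene of REV-ERB alpha, stood at 6 weeks at 5.82 (control) and 6.21 (surgical) log2 CPM in rat A, 5.94 and 5.08 for rat B, and 5.34 and 5.06 for rat E. Rats D, C, G and H, in the same order of sides, stood at 5.54 and 5.99, 5.35 and 5.21, 5.57 and 4.95, and 4.72 and 4.66. Rat H was low and rat A high on both sides, while the surgical minus control difference was -0.87 in rat B and -0.62 in rat G.

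Cry1, the other gene with a positive value near 0.5, did not pass in that test (edgeR adjusted p = 0.749). Its control and surgical levels were 4.02 and 4.27 log2 CPM for rat A, 3.93 and 3.73 for B, 3.09 and 3.16 for E, 3.18 and 3.00 for D, 3.26 and 3.99 for C, 3.36 and 2.87 for G, and 3.64 and 3.12 for H. At 6 weeks both sides of rats A and B lay above both sides of rat E, and at 8 weeks the rats overlapped. In log2 CPM, rat A had the highest mean of its sides for 8 of the 10 genes, all but Tef and Cry2, and rat G the lowest for 6. This depended on the scale: in TPM rat A had the highest mean only for Per2, Dbp and Ciart.

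Dbp, which swings strongly over the day in many tissues, had a negative intraclass correlation. Its control and surgical levels were 7.24 and 7.61 log2 CPM for rat A, 7.43 and 6.28 for B, 6.81 and 6.49 for E, 5.80 and 6.40 for D, 6.25 and 6.43 for C, 6.37 and 5.69 for G, and 6.57 and 5.81 for H. The surgical minus control difference was -1.15 in rat B, 0.59 in rat D, -0.68 in rat G and -0.76 in rat H, and the 8-week rats overlapped one another. Ciart, whose intraclass correlation was 0.16, stood at 3.40 and 3.76 log2 CPM for rat A, 3.76 and 3.05 for B, 2.84 and 2.56 for E, 2.49 and 3.11 for D, 2.88 and 2.51 for C, 2.51 and 1.82 for G, and 2.78 and 1.73 for H. The largest difference between the sides for Ciart was -1.05, in rat H.

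The third comparison set the 8-week against the 6-week rats, which are different animals. Levels of 9 of the 10 genes were lower and that of Cry2 higher at 8 weeks, on either side and in the summed counts of both sides of a rat, but none passed the test. On the TPM scale the median of all genes itself moved by 0.42 on the control side, 0.20 on the surgical side and 0.32 in summed values, and relative to it the directions of the 10 were the same except for Tef on the control side (0.14) and in summed values (0.04). With the rat as the sample (3 against 4), edgeR called 0 of 10 genes, against 0.119% of 17700 genes. At an unadjusted p under 0.05 there were 5 of 10 (Per2, Dbp, Nr1d2, Ciart and Cry2), against 26.8% of all genes, so low unadjusted p-values were common among all genes in this contrast. The median log2 difference of the 10 was -0.40, against -0.06 over all genes tested.

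Dbp averaged 7.01 log2 CPM (SD 0.39, n = 3) at 6 weeks and 6.19 (SD 0.11, n = 4) at 8 weeks in the summed counts, a log2 difference of -0.86 (SE 0.18; edgeR adjusted p = 0.100). It stood at 7.44 in rat A, 6.91 in B and 6.68 in E against 6.11 in D, 6.31 in C, 6.08 in G and 6.23 in H, and the times did not overlap. Nr1d2, the gene of REV-ERB beta, averaged 6.29 (SD 0.28, n = 3) at 6 weeks and 5.81 (SD 0.09, n = 4) at 8 weeks and differed by -0.50 on the log2 scale (SE 0.14; edgeR adjusted p = 0.132). Its rats stood at 6.49, 6.40 and 5.97 at 6 weeks and at 5.77, 5.84, 5.71 and 5.91 at 8 weeks, without overlap. Levels that were lower at 8 weeks without overlap were found for 3 of 10 genes, Dbp, Nr1d2 and Tef, against 12.4% of 17700 genes, and none was higher without overlap, against 9.54%. Tef reached that count with a log2 difference of only -0.08 (SE 0.10).

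Group levels of the Per genes show the same overlap in each side. The 3 control libraries of the 6-week rats averaged 5.79 log2 CPM for Per1 (SD 0.30), a gene that light and stress signals can induce, and their surgical libraries 5.85 (SD 0.41); the 4 rats of 8 weeks averaged 5.59 (SD 0.10) on the control and 5.69 (SD 0.39) on the surgical side. Per2 averaged 4.75 (SD 0.54) and 4.57 (SD 0.57) at 6 weeks and 4.13 (SD 0.33) and 4.03 (SD 0.45) at 8 weeks. Per3 averaged 4.33 (SD 0.14) and 4.50 (SD 0.37) at 6 weeks and 3.97 (SD 0.23) and 4.08 (SD 0.59) at 8 weeks. The highest Per3 libraries, both surgical, were those of rat A (4.92) and rat C (4.90), the latter with the muscle markers, and without rats B, C and H the summed log2 difference of Per3 between the times was -0.68. Tef varied least, at 6.98 (SD 0.06) and 6.92 (SD 0.03) log2 CPM at 6 weeks and 6.94 (SD 0.12) and 6.80 (SD 0.14) at 8 weeks.

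Ciart differed by -0.76 (SE 0.26; edgeR adjusted p = 0.148), with rat E at 2.72 log2 CPM between rats D (2.81) and C (2.67). Per2 differed by -0.62 (SE 0.24; edgeR adjusted p = 0.170), and rat E at 4.27 lay below rat H at 4.31. The other repressors stood at -0.20 (SE 0.17) for Per1, -0.37 (SE 0.21) for Per3 and -0.43 (SE 0.26) for Cry1, and Nr1d1 at -0.33 (SE 0.28). Cry2, alone in being higher at 8 weeks, averaged 5.96 (SD 0.32, n = 3) at 6 weeks and 6.39 (SD 0.12, n = 4) at 8 weeks and differed by 0.41 on the log2 scale (SE 0.17; edgeR adjusted p = 0.176). Its rat E, at 6.29, lay among the 8-week rats, which ran from 6.28 to 6.50.

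**Figure D3:**
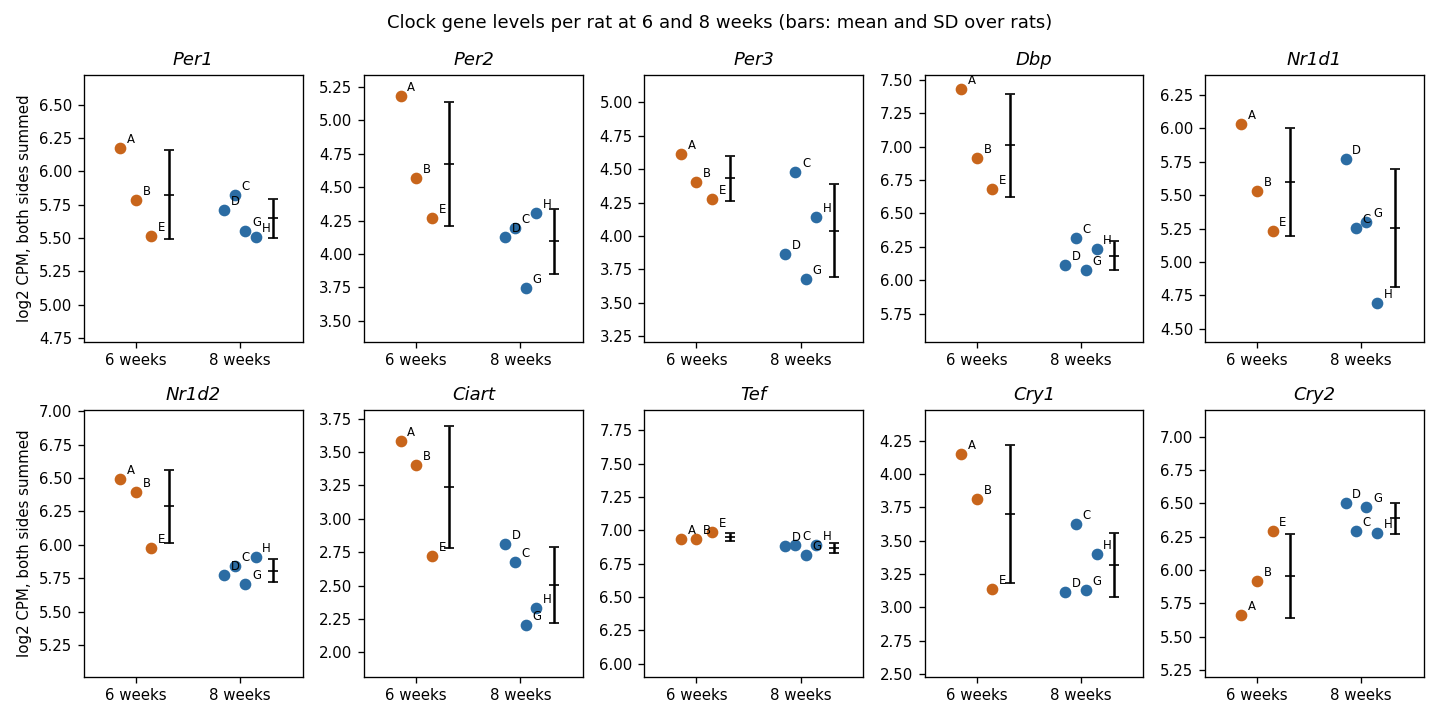
Level of each clock gene per rat (log2 CPM of the summed counts of both sides) at 6 weeks (3 rats) and 8 weeks (4 rats), lettered, with the mean and SD of the rats as a bar. Dbp, Nr1d2 and Tef do not overlap between the times, and rat E lies nearest to the 8-week rats for Dbp, Nr1d2, Per2, Ciart, Cry1 and Cry2.

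Leaving out rat E, so that only rats A and B stood for 6 weeks, changed these calls. The neuronal marker level of rat E, 9.01 and 9.02, was the highest of the 6-week rats and within the range of the 8-week rats. Its macrophage markers (4.55 and 4.34) and red blood cell markers (9.01 and 9.45) were the lowest of the 6-week rats. Its surgical library also held muscle RNA. The part of these traits in the calls was not tested. Without rat E, edgeR called 5 of 10 genes in the summed counts, against 35.3% of 18076 genes: Dbp (log2 difference -0.92, adjusted p = 0.0071), Nr1d2 (-0.55, 0.0083), Cry2 (0.69, 0.0085), Ciart (-0.89, 0.0199) and Per2 (-0.71, 0.0449). With all rats, DESeq2 called 2 of 10, Dbp (adjusted p = 0.0038) and Nr1d2 (adjusted p = 0.0433), against 15.0% of 16918 genes. When the neuronal marker level was added as a covariate, edgeR called 0 of 10, against 0 of 17700 genes. The log2 difference of Dbp was then -0.38, that of Nr1d2 -0.13, that of Ciart -0.13 and that of Cry2 0.02. Per1, Nr1d1 and Cry1 turned positive. Without rats B, C and H, edgeR called 0 of 10, against 0 of 17673 genes, with Dbp at -1.01 and Cry2 at 0.48. The neuronal level was lower in most 6-week libraries than in the 8-week ones, and the parts of time and neuronal content cannot be told apart.

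On the control side alone, edgeR called 0 of 10 genes between the times, against 0.153% of 16346 genes. Unadjusted, 3 of 10 passed (Dbp, Nr1d2 and Ciart), against 31.2% of genes. Dbp differed by -0.92 (SE 0.22; edgeR adjusted p = 0.0937), its 6-week controls at 6.81 to 7.43 log2 CPM all above its 8-week controls at 5.80 to 6.57. It was the only one of the 10 whose controls were lower at 8 weeks without overlap, against 12.6% of 17035 genes, and none was higher, against 11.8%. Without rat E 5 of 10 were called, against 38.3% of 16676 genes, and DESeq2 called Dbp (adjusted p = 0.0083), against 19.4% of 15932 genes. Without rats B, C and H, 0 of 10 were called, against 0 of 16399 genes, and Nr1d1 moved from -0.40 to -0.05. The value of Dbp was -0.51, and that of Ciart -0.14, with neuronal markers in the model.

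On the surgical side edgeR called 0 of 10, against 0% of 16606 genes, and 0 of 10 without adjustment, against 6.56%. DESeq2 called 0 of 10, against 0.0490% of genes. Log2 differences there ran from -0.81 for Ciart (SE 0.45) and -0.80 for Dbp (SE 0.37) to 0.38 for Cry2 (SE 0.24). The value of Dbp was -0.27 without rat A and -0.17 with neuronal markers in the model, and those of Ciart were -0.43 and -0.25. Per1 and Nr1d1 changed sign in both settings, to 0.10 and 0.22 without rat A and to 0.25 and 0.31 with neuronal markers in the model. Without rats B, C and H, Per3 moved from -0.36 to -0.87, Cry1 from -0.49 to -0.89 and Per1 from -0.17 to -0.35. In that setting 0 of 10 were called, against 0 of 16542 genes. Nr1d2 (-0.44, SE 0.19) was the only one lower at 8 weeks without overlap, against 5.17% of genes, and none was higher, against 5.04%. The control and surgical comparisons use the same 7 rats and are not independent of each other.

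Levels of the clock genes were also set beside the neuronal content of the library, as a description. Over the 14 libraries, which share the rats and the scaling, the Pearson correlation with the mean of the 16 neuronal markers was negative for 9 genes, with a median of -0.76 over the 10, and 0.96 for Cry2. Correlations with the mean of 6 fibroblast markers had a median of 0.73, with 5 endothelial markers 0.71 and with 6 macrophage markers 0.68, and in each of these Cry2 had the opposite sign. The median was lower for the other lists: 0.52 for red blood cell, 0.42 for Schwann cell and 0.25 for adipocyte markers. It was 0.18 for spinal cord, 0.01 for skeletal muscle and -0.03 for satellite glia markers. These correlations were not computed for all genes. The values for Dbp were -0.83 with neuronal and 0.90 with endothelial markers, and for Cry1 -0.84 with neuronal and 0.90 with macrophage markers. The value for Tef, with a range of 0.41 over the libraries, was -0.22.

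Cry2, a CRY repressor, stood at 5.86 (control) and 5.44 (surgical) log2 CPM for rat A, 5.58 and 6.16 for B, 6.30 and 6.24 for E, 6.53 and 6.43 for D, 6.52 and 6.08 for C, 6.50 and 6.46 for G, and 6.03 and 6.47 for H. The neuronal markers of the same libraries were at 8.01 and 6.15 for rat A, 6.92 and 8.23 for B, 9.01 and 9.02 for E, 9.26 and 9.20 for D, 9.25 and 8.37 for C, 9.50 and 9.16 for G, and 8.77 and 9.31 for H. In rats A and C both were lower on the surgical side, and in rats B and H both were higher there.

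**Figure D4:**
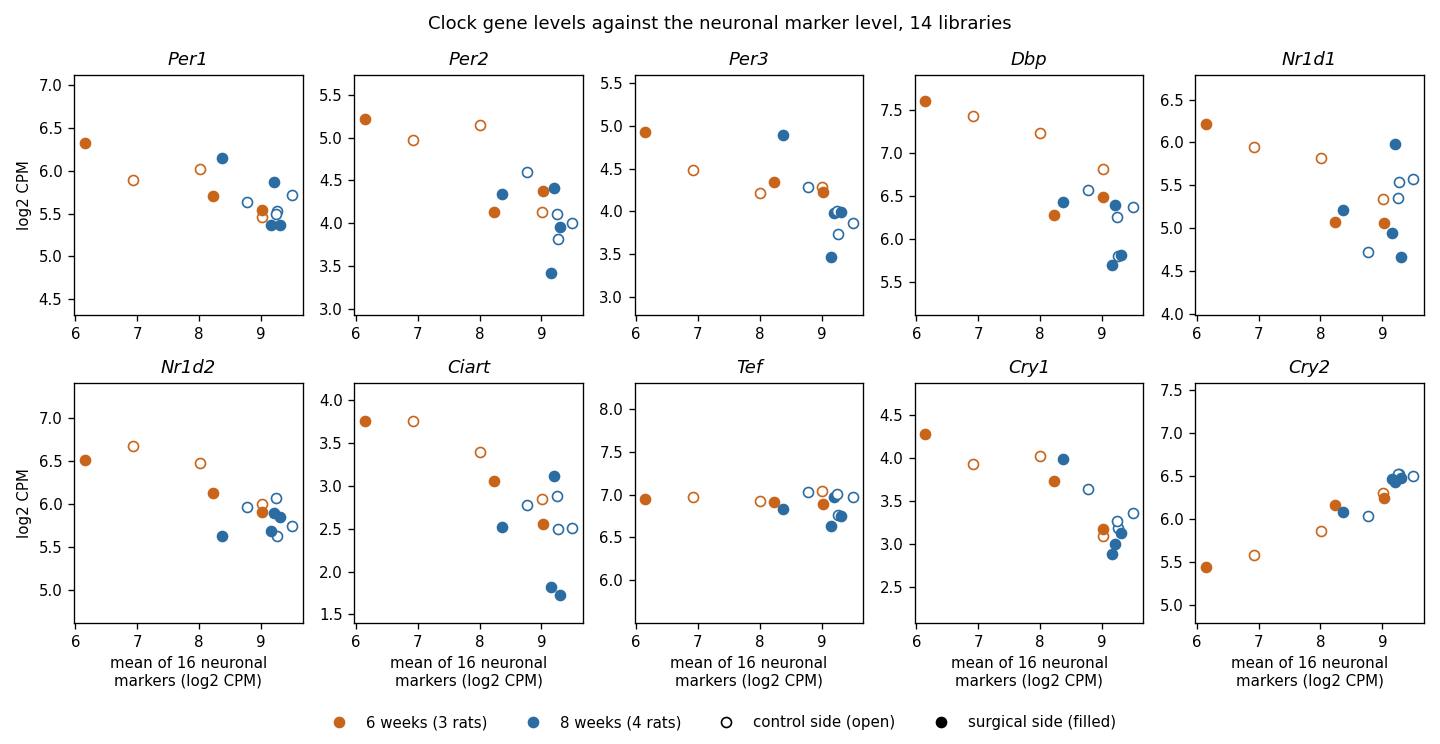
Level of each clock gene (log2 CPM) against the mean of 16 neuronal markers (log2 CPM) in 14 libraries, 6 weeks in orange and 8 weeks in blue, control libraries open and surgical libraries filled. Cry2 climbs along a narrow line (Pearson correlation 0.96), Dbp and Cry1 descend, and Tef stays level.

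Because the sides of a rat differ in neuronal content, the relation could be tested within rats, with rat and side in an edgeR model, a test that was added after these values had been seen. Cry2 rose by 0.35 log2 units (SE 0.08) for each log2 unit of neuronal markers (edgeR adjusted p = 0.0306), 1 call of the 10 against 12.6% of 17035 genes, a share near that of all genes. The 9 others had negative slopes, of which Dbp had the steepest (-0.47, SE 0.17; edgeR adjusted p = 0.109), followed by Per3 (-0.35, SE 0.15), Ciart (-0.33, SE 0.21) and Nr1d1 (-0.30, SE 0.15). None of them passed, against 0.423% of genes called lower with more neuronal RNA. The call of Cry2 was lost without rat B (0.33, edgeR adjusted p = 0.256), rat E (0.29, 0.153), rat D (0.35, 0.0584), rat G (0.35, 0.0604) or rat H (0.32, 0.0941), and without rats B, C and H together the slope was 0.20 (adjusted p = 0.638). Dbp passed without rat D (-0.48, edgeR adjusted p = 0.0316). The share of all genes called in these fits with rats left out is not reported here.

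Correlations among the 10 genes were also computed. Of their 45 pairs, 36 had a positive Pearson correlation over the 14 libraries and the median was 0.62. Pairs of other genes were not computed for comparison, and the part of shared cell content in these correlations was not tested. Pairs with Cry2 had a median of -0.78, and pairs without Cry2 and Tef one of 0.72. In the mean z-score of the 10 genes, where Cry2 counts against the rest, Dbp (0.95), Ciart (0.94) and Per2 (0.93) followed the mean most closely. Each of the 10 is itself part of that mean, which raises its value, and genes outside the 10 are not. The genes outside the 10 with the most similar pattern over the 14 libraries, among 13853 genes with a mean of at least 1 TPM, were Snx33 (Pearson correlation 0.96), Mtarc1 (0.95), Lrp1 (0.94), Cybrd1 (0.94), Grb10 (0.93), Esam (0.93), Fam43a (0.93) and Zfp36l1 (0.93). The least similar were Slc16a6 (-0.92), Polr3a (-0.91), Rassf5 (-0.90) and Cnst (-0.90). Among partners in the clock, the E-box repressors Bhlhe40 and Bhlhe41 stood at 0.81 and 0.42. Hlf, another D-box activator, stood at 0.78, Nfil3, the D-box repressor, at 0.62, Clock at 0.48 and Bmal1 at 0.42. Csnk1d, a kinase that marks PER proteins for removal, stood at -0.81.

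The rest of the loop was examined through gene lists. Of the activators and their relatives, Clock, Bmal1, Npas2 and Bmal2 were tested, and edgeR called none in any comparison, of 3 tested between the times on the control side and 4 elsewhere. The share of all genes that edgeR called was at most 0.153% in these comparisons. Between the times in summed counts 1 of 4 had an unadjusted p under 0.05, against 26.8% of all genes. Clock averaged 3.53 TPM and Bmal1 2.75 TPM over the 14 libraries, with surgical minus control log2 differences of 0.05 (SE 0.13) and 0.05 (SE 0.14). Bmal1, the gene that NR1D1 and NR1D2 repress, stood between 2.55 and 3.14 log2 CPM in every library, a narrow range. On that scale it was highest in the surgical library of rat A, where Nr1d1 was also highest. In TPM Bmal1 ran from 1.70 to 3.38 and was highest in the control library of rat H. Nr1d1 was then highest in the surgical library of rat D, at 30.9 TPM. Npas2, a relative of CLOCK known from forebrain, reached 1.33 TPM in the surgical library of rat B, the one with spinal cord markers, against at most 0.19 TPM in the others. The part of spinal cord RNA in that value was not tested.

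Bmal1 had an intraclass correlation of 0.89, beside an edgeR adjusted p of 0.936 in the joint test among rats, and its whole spread in log2 CPM was small. That of Nfil3 was 0.59, that of Wee1, a cell-cycle kinase under E-box control, 0.53, and that of Clock -0.33. Between the sides, Nfil3 stood at 0.35 (SE 0.23) and Rora, a nuclear receptor that activates the gene of BMAL1, at 0.23 (SE 0.25), and neither was called. Of 5 other E-box and D-box genes 0 were called in any comparison, against at most 0.153% of all genes. Between the times, in summed counts, 4 of 5 were lower at 8 weeks with a median of -0.61, against -0.06 over all genes. Without adjustment 2 of 5 had a p under 0.05, against 26.8% of all genes. The 5 genes were Hlf at -0.88 (SE 0.47), Bhlhe40 at -0.70 (SE 0.23), Wee1 at -0.61 (SE 0.22) and Bhlhe41 at -0.21 (SE 0.14), beside Usp2 at 0.05 (SE 0.28). Of 7 kinases, ubiquitin ligases and cofactors of the clock 0 were called in that comparison, against 0.119% of all genes. Unadjusted, 2 of 7 had a p under 0.05, against 26.8% of all genes. Levels of 4 of the 7 were higher at 8 weeks, and the median of the 7 was 0.21. The 4 were Btrc at 0.52 (SE 0.14), Csnk1d at 0.48 (SE 0.17), Cipc at 0.26 (SE 0.18) and Csnk1e at 0.21 (SE 0.11). Fbxl21 and Timeless stood at -0.36 (SE 0.36) and -0.54 (SE 0.48).

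Genes that follow glucocorticoid hormone, which also varies over the day and with stress, and genes of rapid cell activation were set beside the clock genes. Of 7 glucocorticoid response genes 0 were called among rats of the same time, against 0.0411% of all genes. Without adjustment 4 of 7 had a p under 0.05, against 4.41% of all genes. The smallest belonged to Sgk1, a salt-regulating kinase, Fkbp5, a chaperone of the glucocorticoid receptor, and Ddit4, an inhibitor of growth signalling, each at an edgeR adjusted p of 0.749. Their intraclass correlations were 0.81 for Sgk1, 0.68 for Fkbp5 and 0.67 for Ddit4, which follow from choosing them by that test, and those of the 4 other genes of the list ran from -0.02 to 0.64. Fkbp5 stood at 7.67 (control) and 8.01 (surgical) log2 CPM for rat A, 7.30 and 6.58 for B, 6.13 and 5.94 for E, 6.60 and 6.77 for D, 7.07 and 7.36 for C, 6.52 and 5.88 for G, and 6.96 and 6.04 for H. Both sides of rat A were higher, and both sides of rat E lower, than those of the other 6-week rats.

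Of 8 immediate early genes tested among rats 0 were called, against 0.0411% of all genes, and 5 of 8 had an unadjusted p under 0.05, against 4.41%, the smallest for Fos (edgeR adjusted p = 0.0535), Junb (edgeR adjusted p = 0.749) and Fosb (edgeR adjusted p = 0.749). Fos, a transcription factor gene switched on within minutes of stimulation, stood at 78.9 (control) and 104 (surgical) TPM for rat A, 29.2 and 20.3 TPM for B and 5.02 and 6.09 TPM for E. Its 8-week levels were 19.6 and 10.9 TPM for D, 9.84 and 7.54 TPM for C, 7.81 and 5.20 TPM for G and 4.997 and 5.98 TPM for H. Each side of rat A exceeded every other library, and the intraclass correlation of Fos was 0.92, with 0.73 for Junb and 0.77 for Fosb. These 3 were chosen by the test among rats, and the 5 other tested genes of the list ran from 0.17 to 0.75. In the summed counts 8 of 9 immediate early genes were lower at 8 weeks, with a median log2 difference of -1.46. There edgeR called 0, against 0.119% of all genes, with 6 of 9 at an unadjusted p under 0.05, against 26.8%. In log2 CPM, rat A was the highest of the rats for Fos, for Fkbp5 and for 8 of the clock genes. Its surgical library was also the lowest in neuronal markers. In TPM rat A was the highest for Fos and Fkbp5 but, of the clock genes, only for Per2, Dbp and Ciart. In log2 CPM it was the highest for most of the other tested glucocorticoid and immediate early genes as well. Rats B, C or D were the highest for the rest, among them Sgk1 (rat B). The part of hormone or activation state in the clock gene levels was not tested.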

How the data were processed

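The deposited tables held estimated counts and TPM per gene, made by the authors with Salmon after FastQC and Trim Galore, with DESeq2 also named, per the submitters' processing notes. Versions and the genome build were not given in the sources used here. Deposited estimated counts were whole numbers (0 non-whole values), and TPM are the authors' length-scaled values. The labels call the molecule polyA RNA and also name ribosomal depletion. On both sides, the titles of the 8-week samples exchange the letters C and D relative to the library names; pairs are unaffected, and rats are called by their titles. The surgical library of rat C, titled replicate 1, was used as replicate 2.

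Estimated counts were tested with edgeR 4.0.16 (R 4.3.3) by the quasi-likelihood test with TMM scaling, filterByExpr (minimum count 10) and robust dispersion, two-sided, with Benjamini-Hochberg adjustment over all genes tested and a threshold of 0.05. SE is the size of a log2 difference divided by the square root of F. Side comparisons held the rat as a block, since both libraries of a rat come from that animal (6 residual degrees of freedom, 5 with a side term per time). For the times, the counts of both libraries of a rat were added, or each side was tested alone. Levels are log2 CPM with a prior count of 2, and the intraclass correlation used these after removal of group means. DESeq2 1.42.0 was tried in place of edgeR, as were DESeq2 size factors within edgeR, all genes without a filter, limma 3.58.1 on log2(TPM + 1) for genes with a mean of at least 0.5 TPM, each rat left out, rats B, C and H left out, the neuronal marker level as a covariate, and no block. The slope on neuronal markers and the TPM differences less the median of all genes were added after the values were seen. The scripts were tested on simulated data.

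The 10 genes, the gene and marker lists and the alternatives were chosen with earlier results of these data known. All 10 clock genes and the tested genes of the clock lists were named, apart from a few that are not reported here, with the 3 smallest p among rats of the glucocorticoid and immediate early lists and the 8 most and 4 least similar genes. Whole-series lists of other pathways were not used here. Sequences are from the RefSeq promoter table (GRCr8), and no window was listed for Cry1.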

Additional observations from a re-analysis of the deposited data

Results flagged for a closer look

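In groups of 4 rats, 1 library stood apart from the other 3 for Cry2 in each of 2 of the 30 groups examined, where chance sets a library apart in about 1 in 20 groups. Among the 8-week controls, Cry2 was lowest in rat H at 6.03 log2 CPM, with the nearest library at 6.50 and the highest at 6.53. Among the 8-week surgical libraries, it was lowest in rat C at 6.08 log2 CPM, with the nearest at 6.43 and the highest at 6.47. These were the 8-week libraries with the lowest neuronal and the highest skeletal muscle marker levels, 8.77 and 8.52 for rat H control and 8.37 and 10.05 for rat C surgical. The part of muscle RNA in these values was not tested.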

How the results depend on the processing

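The number of clock genes called was 0 between the sides and among rats of the same time under every alternative run, including the side comparisons without the rat as a block (0 called over both times, at 6 weeks, at 8 weeks and for the difference between them). Between the times it was 0 to 5 of 10 as rats were left out, on the control side and in summed counts. It was 5 without rat E and 0 without any other rat. With any other rat left out, edgeR called 0 of all genes in both comparisons, except 1 of 16154 on the control side without rat H. The share of all genes called without rat E was 38.3% on the control side and 35.3% in summed counts. DESeq2 called 1 on the control side, against 19.4% of all genes, and 2 in summed counts, against 15.0%. The slope on neuronal markers gave 1 call, against 12.6% of all genes. It became 0 to 1 with rats left out (0 without B, E, G or H, and without D the call was Dbp in place of Cry2) and 0 without rats B, C and H. The share of all genes called by the slope with rats left out is not reported here. The 10 genes sit at 79 or more counts in each library, so depth limits Ciart and Cry1 most.

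Small values changed sign. Of 150 recomputed side differences 13 did. With rats left out, Per1 ran from -0.014 to 0.15, Cry1 from -0.18 to 0.032 and Cry2 from -0.097 to 0.068. Cry2 became 0.0010 with DESeq2 and 0.00097 with its size factors, 0.011 with limma on TPM and 0.059 with the neuronal covariate. Without rats B, C and H, Per2 became 0.084, Nr1d2 0.036 and Ciart 0.0097.

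Of 420 recomputed differences between the times 32 changed sign. Limma on TPM moved the median of all genes to 0.42 on the control side, 0.20 on the surgical side and 0.32 in summed values, and control-side values became 0.39 for Per1, 0.28 for Per3, 0.048 for Nr1d1, 0.011 for Nr1d2, 0.56 for Tef and 0.24 for Cry1. Surgical-side values became 0.090 for Per1 and 0.14 for Tef, and summed values 0.24 for Per1, 0.10 for Per3, 0.0039 for Nr1d1, 0.35 for Tef and 0.034 for Cry1. Less that median, only Tef was positive beside Cry2 (0.14 control, 0.036 summed), and Dbp stood at -0.72 and -0.68. With the neuronal covariate, control values became 0.0072 for Per1 and 0.16 for Cry1, surgical values 0.25 for Per1, 0.081 for Per3, 0.31 for Nr1d1 and 0.10 for Cry1, and summed values 0.23 for Per1, 0.056 for Nr1d1 and 0.35 for Cry1. Without a filter, Tef became 0.00067 on the control side and 0.0048 in summed counts. With rats left out, Tef ran from -0.071 to 0.063 on the control side and from -0.093 to 0.025 in summed counts, Per1 from -0.38 to 0.10 on the surgical side and from -0.26 to 0.042 in summed counts, and Nr1d1 from -0.62 to 0.22 on the surgical side. Neuronal slopes ran from -0.17 to 0.025 for Nr1d2 and from -0.096 to 0.036 for Tef, and without rats B, C and H they were 0.089 for Per2 and 0.0092 for Nr1d2. Apart from the TPM scaling, the cause of these changes was not tested. The median intraclass correlation was 0.04 on log2(TPM + 1) and -0.23 to 0.29 with rats left out.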
